A study of Arabidopsis thaliana with 9 samples.

Results

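Germin-like protein genes were followed in Arabidopsis thaliana roots through 10 listed loci, AT3G05950, AT3G04150, AT3G04170, AT3G04180, AT3G04200, AT5G38910, AT5G38930, AT5G38940, AT5G39110 and AT5G39130. Of these, 6 loci had an ATH1 probe set annotated to that locus alone, which gave 6 of the 13350 named genes with such a probe set and 6 of the 22746 probe sets that were not controls. The other 4 loci lay only on 3 probe sets that each stand for several germin-like loci, listed or not, and those are described as shared. The set was chosen on the signals of these same 9 arrays as well as on gene family, so the members' levels and differences are given as a description, with no test. AT3G05950 is the gene that the others are set against.

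Germin-like proteins belong to the cupin superfamily, whose members fold into a small beta-barrel. They are mostly secreted glycoproteins of the cell wall that bind manganese. In cereals the germins proper are oxalate oxidases that release hydrogen peroxide into the wall, and some germin-like proteins of other plants act as superoxide dismutases. In plant genomes the genes often stand in tandem rows.

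The arrays compared 3 lines with 3 arrays each. The lines cngc1-3 and cngc19 are labelled as T-DNA knockouts in the Col-0 background, named for genes of cyclic nucleotide-gated channels, which conduct cations across membranes, and Col-0 is the wild type. In all 3 lines, plants grown on agar were moved to aerated nutrient solution at day 18 and kept there for 7 days, and roots were taken at day 25. The roots of 20 to 30 plants were bulked into each tube. Although the series is titled for caesium toxicity, no caesium treatment is listed for any array. Each mutant is represented by a single named line. Nothing in the labels says that the tubes of a line came from separate cultures, so p-values reflect the variation among these tubes alone, and that may be technical. CNGC1 and CNGC19 were not analysed here, since no probe set was named for them, and the line labels were therefore not checked through those genes.

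The values are MAS5 signals, a brightness per probe set on a linear scale scaled to a common trimmed mean on every array. Differences are of log2(signal + 16), which understates the change of dim probe sets, and no detection calls were used. The number of arrays limits the precision. In such bulk root samples, fewer cells of a type and less RNA per cell cannot be told apart.

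Several arrays stood apart from the rest. Over the 13648 probe sets that passed a filter on low mean signal, the correlation of Col-0 replicate 2 with the 6 mutant arrays and Col-0 replicate 1 ranged from -0.04 to -0.02. For Col-0 replicate 3 the same range was 0.26 to 0.38, whereas r = 0.950 linked cngc19 replicate 3 and Col-0 replicate 1. With replicates 1 and 2 of its own line, cngc19 replicate 3 correlated at 0.803 and 0.814. Those 2 arrays correlated at 0.985 with each other, so cngc19 replicate 3 was closer to Col-0 replicate 1 than to its own line. The points behind these correlations are probe sets and not independent replicates. Relative to the median of the remaining arrays, spiked-in controls stood at 17.3 on Col-0 replicate 2, 6.92 on Col-0 replicate 3 and 0.673 to 1.38 on the other 7 arrays. On cngc1-3 replicate 3 the ratio of 3′ to 5′ signal was 6.37 for GAPDH and 199.7 for actin, while the other 8 arrays lay between 0.240 and 2.81 and between 1.34 and 5.81. The array's older GAPDH probe sets put this ratio at 13.5 on cngc1-3 replicate 3 and at 35.2 on Col-0 replicate 3, the highest of the 9. The 3 root markers with a named probe set, of 14 listed, summed to 5007 to 6317 in cngc1-3 and 5299 to 6443 in cngc19, against 5998, 600.5 and 490.4 on Col-0 replicates 1, 2 and 3. PYK10 and AT5G17820 carried these sums, whereas EXPA7 was highest on Col-0 replicate 2, at 318, and was 28.6 on Col-0 replicate 3. None of the 3 was listed at 0, the lowest signal being 13.8. The 7 shoot markers with a named probe set, of 28, summed to 527 to 827 in cngc1-3, to 1253, 1081 and 171 on cngc19 replicates 1, 2 and 3, and to 117, 1069 and 20781 on the same replicates of Col-0. Differences from Col-0 are therefore also given against Col-0 replicate 1 alone, where the lone array is assumed to vary like the mutant lines, and values that rest on cngc19 replicate 3 are given without it.

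AT3G05950 lay low on all cngc1-3 arrays and varied widely in the other lines. Its signal was 27.4, 22.8 and 31.1 on the cngc1-3 arrays. It was 23.4, 22.7 and 2304 on the cngc19 arrays, and 1552, 477 and 66.6 on the Col-0 arrays. The single highest value was therefore that of cngc19 replicate 3, and Col-0 replicate 1 came next. The 2 other cngc19 arrays, at 23.4 and 22.7, lay close to the lowest cngc1-3 array, at 22.8. All 3 cngc1-3 arrays lay below all 3 Col-0 arrays, whereas the cngc19 arrays overlapped both other lines. The gene exceeded its array's median signal on 4 of 9 arrays, though on Col-0 replicate 3 only barely, at 66.6 against 66.3.

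**Figure D1:**
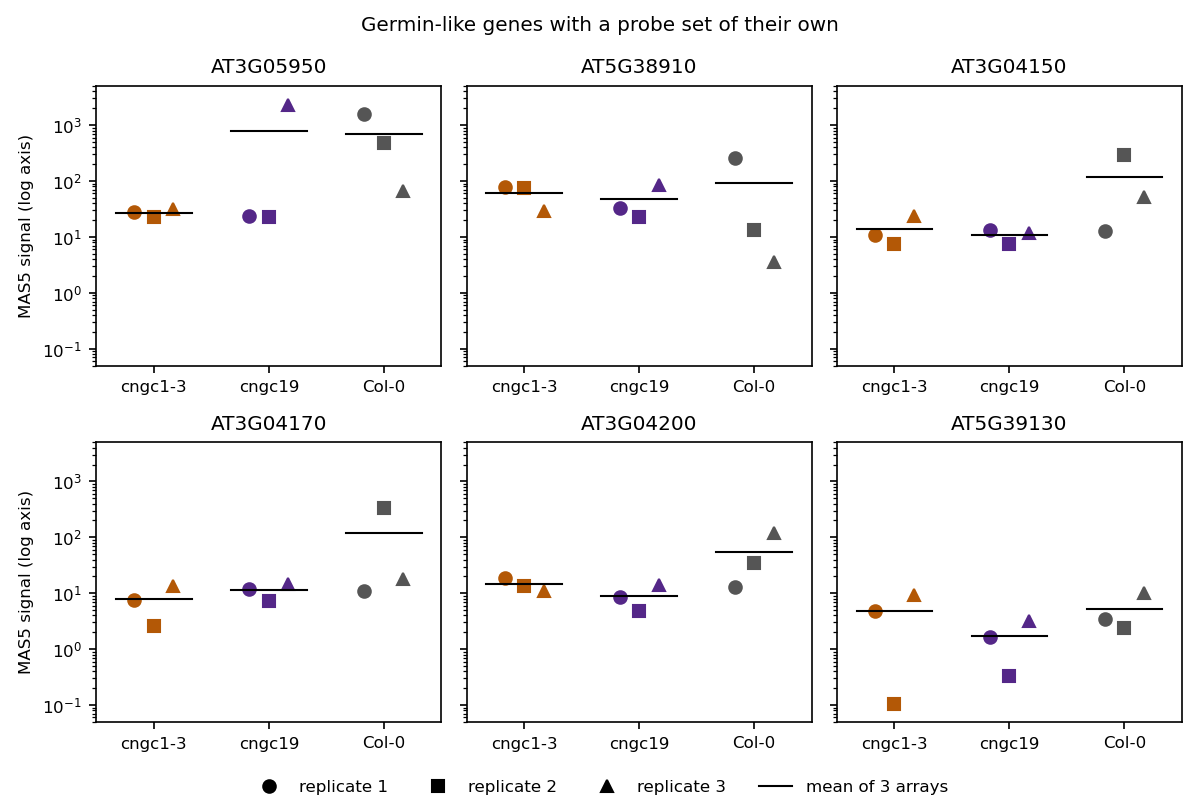
MAS5 signal on a log axis of the 6 germin-like loci with a probe set of their own, by array, for cngc1-3, cngc19 and Col-0 from left to right; each point is 1 array. AT3G05950 reaches 2304 on cngc19 replicate 3 and 1552 on Col-0 replicate 1, against 22.8 to 31.1 on the cngc1-3 arrays.

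The mean signal of AT3G05950 was 27.1 ± 4.19 in cngc1-3, 783 ± 1317 in cngc19 and 698 ± 767 in Col-0 (SD, n = 3 each). In descending order of the mean the lines were cngc19, Col-0 and cngc1-3, and neither pair of neighbours differed by more than the SD of the higher line. On the log2 scale the SD over arrays was 0.14 in cngc1-3, 3.40 in cngc19 and 2.14 in Col-0. The line with the most even signal was thus the one in which the gene stayed low.

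In cngc1-3 against Col-0 the log2 difference of AT3G05950 was -3.22 ± 1.42 (SE). Against Col-0 replicate 1 alone it was -5.19, without that replicate it was -2.23, and without Col-0 replicate 3 it was -4.35. The sign held in each of these and the size moved with the Col-0 arrays kept. Of the 6 members with their own probe sets, only AT3G05950 had all cngc1-3 arrays below the Col-0 arrays, where 14.3% of the 22746 probe sets lay so. None of these 6 lay above without overlap, where 8.15% of probe sets did. Of the 3 shared probe sets, 1 lay below and 0 above, as given further on.

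In cngc19 against Col-0 the direction of AT3G05950 depended on the scale of averaging. The log2 difference was -1.39 ± 1.42 (SE), while the mean signal of cngc19 was 1.12 times that of Col-0. Without cngc19 replicate 3 the log2 difference was -3.36, and against Col-0 replicate 1 alone, with all cngc19 arrays kept, it was also -3.36. Leaving out Col-0 replicate 1 gave -0.41, while leaving out replicate 1 or replicate 2 of cngc19 gave -0.42 and -0.40, so its size rested on single arrays of both lines. None of the 6 members with their own probe sets separated these lines in either direction, against 11.9% of probe sets below and 4.66% above. Of the 3 shared probe sets, 1 lay above and 0 below. Both mutants are set against the same Col-0 arrays, so their differences are not independent of each other.

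Between the mutants, the log2 difference of AT3G05950 in cngc1-3 against cngc19 was -1.83 ± 1.42 (SE). Without cngc19 replicate 3 it was 0.14, so both the size and the sign rested on that array. No member separated the mutants without overlap, where 4.69% of probe sets lay above and 3.53% below.

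The remaining members did not share the whole profile of AT3G05950, though some had their highest signals on the same arrays, as given below. On chromosome 3, a row of 5 germin-like loci holds AT3G04150, AT3G04170, AT3G04180, AT3G04190 and AT3G04200, with at most 2 other protein-coding genes between consecutive ones in the RefSeq annotation (TAIR10.1). On chromosome 5, AT5G38910, AT5G38930, AT5G38940 and AT5G38960 form a row with at most 1 other gene between neighbours. A row of 8 loci on the same chromosome, from AT5G39100 to AT5G39190, includes AT5G39110 and AT5G39130. AT3G05950 itself lies on chromosome 3 with 4 genes between it and AT3G05930, outside these rows.

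The 3 loci of the chromosome 3 row with their own probe sets were dim on the mutant arrays and on Col-0 replicate 1, and reached their highest signal on Col-0 replicate 2 or 3. AT3G04150 had signals of 10.9, 7.43 and 23.9 in cngc1-3, 13.3, 7.50 and 11.7 in cngc19, and 13.0, 289 and 51.6 in Col-0. AT3G04170 had 7.60, 2.62 and 13.4 in cngc1-3, 11.8, 7.33 and 14.7 in cngc19, and 10.8, 332 and 17.6 in Col-0. AT3G04200 had 18.3, 13.6 and 11.1 in cngc1-3, 8.67, 4.72 and 13.8 in cngc19, and 13.1, 35.1 and 117 in Col-0. AT3G04150 and AT3G04170 were thus highest on Col-0 replicate 2 and AT3G04200 on Col-0 replicate 3, the 2 arrays with raised spiked-in controls. The lines overlapped for all 3 genes, because Col-0 replicate 1 lay among the mutant arrays, and each gene exceeded its array's median on 1 of 9 arrays.

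The mean signal of AT3G04150 was 14.1 ± 8.68 in cngc1-3, 10.8 ± 2.99 in cngc19 and 118 ± 149 in Col-0 (SD, n = 3 each), and that of AT3G04170 was 7.86 ± 5.38, 11.3 ± 3.70 and 120 ± 184 in the same order. AT3G04200 averaged 14.4 ± 3.67 in cngc1-3, 9.08 ± 4.57 in cngc19 and 55.1 ± 54.8 in Col-0. For each gene the Col-0 SD was close to or above the Col-0 mean. The log2 differences in cngc1-3 against Col-0 were -1.52 for AT3G04150, -1.54 for AT3G04170 and -0.95 for AT3G04200. In cngc19 against Col-0 they were -1.66, -1.33 and -1.23 for the same genes. With only Col-0 replicate 1 as the wild type, the 3 genes differed by 0.01, -0.19 and 0.05 in cngc1-3 and by -0.12, 0.01 and -0.23 in cngc19. The differences of these genes were thus far smaller without Col-0 replicates 2 and 3, and the part of those arrays' spiked-in controls and markers in them was not tested.

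The shared probe set of AT3G04180 and AT3G04190, from the same row, had signals of 0.982, 0.368 and 0.975 in cngc1-3. It had 0.291, 0.658 and 1.93 in cngc19, and 1.10, 25.4 and 42.8 in Col-0. Its highest signals were thus those of Col-0 replicates 2 and 3, though it exceeded its array's median on 0 of 9 arrays. The cngc1-3 arrays all lay below the Col-0 arrays, as did 14.3% of the 22746 probe sets. The log2 difference in cngc1-3 was -1.05, and -0.03 against Col-0 replicate 1 alone. The cngc19 arrays overlapped Col-0, with -1.03 and -0.01. Which of the 2 loci gave this signal cannot be told apart.

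AT5G38910, in the shorter row of chromosome 5, showed another order of arrays than the chromosome 3 row. Col-0 replicate 1 was high and Col-0 replicates 2 and 3 were low. Its highest signals, on Col-0 replicate 1 and cngc19 replicate 3, fell on the same arrays as those of AT3G05950. On Col-0 replicate 2, however, AT3G05950 was high at 477 and AT5G38910 was low. AT5G38910 had signals of 77.9, 74.7 and 29.2 in cngc1-3, 32.9, 22.6 and 85.2 in cngc19, and 258, 13.4 and 3.57 in Col-0. The 3 Col-0 arrays held both the highest and the lowest values of the gene, and every mutant array lay between them. Mean signals were 60.6 ± 27.2 in cngc1-3, 46.9 ± 33.5 in cngc19 and 91.8 ± 144 in Col-0 (SD, n = 3 each). The mean signal was 0.661 times that of Col-0 in cngc1-3 and 0.511 times in cngc19, yet the log2 differences were 0.43 ± 0.85 and 0.09 ± 0.85 (SE). Against Col-0 replicate 1 alone they were -1.91 in cngc1-3 and -2.25 in cngc19, and without cngc19 replicate 3 the value for cngc19 was -0.31. The direction of this gene thus followed the Col-0 arrays kept. In cngc1-3 against cngc19 the log2 difference was 0.34. It was 0.74 without cngc19 replicate 3 and 0.68 without cngc1-3 replicate 3.

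The probe set shared by AT5G38930 and AT5G38940, the next loci in that row, had signals of 200.4, 140.3 and 23.9 in cngc1-3. It had 173, 165 and 682 in cngc19, and 663, 11.4 and 1.80 in Col-0. Like AT5G38910 it was highest on cngc19 replicate 3 among the mutant arrays, high on Col-0 replicate 1 and lowest on Col-0 replicates 2 and 3. Its highest signals, on cngc19 replicate 3 and Col-0 replicate 1, thus fell on the same arrays as those of AT3G05950. The log2 difference was 0.68 in cngc1-3 and 2.06 in cngc19 against all Col-0 arrays, but -2.62 and -1.24 against Col-0 replicate 1 alone. The lines overlapped in every comparison. In cngc1-3 against cngc19 the difference was -1.38. It was -0.74 without cngc19 replicate 3 and -0.65 without cngc1-3 replicate 3. Leaving out cngc1-3 replicate 3 also moved the difference in cngc1-3 against Col-0 to 1.41.

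In the longer row of chromosome 5, the probe set shared by AT5G39110, AT5G39120, AT5G39150 and AT5G39180 was bright on most arrays. Its signals were 274, 240.03 and 622 in cngc1-3, 509.9, 476 and 365 in cngc19, and 250.9, 17.6 and 76.2 in Col-0. All cngc19 arrays lay above all Col-0 arrays, as did 4.66% of the 22746 probe sets, with a log2 difference of 2.30. In cngc1-3, 1 array lay below Col-0 replicate 1, and the log2 difference was 1.95. The values against Col-0 replicate 1 alone were 0.79 in cngc19 and 0.44 in cngc1-3. The signs held while most of the size went with Col-0 replicates 2 and 3. AT5G39130, from the same row, was dim throughout, with 4.77, 0.104 and 9.35 in cngc1-3, 1.62, 0.327 and 3.12 in cngc19, and 3.42, 2.35 and 9.94 in Col-0. It never exceeded its array's median, the lines overlapped, and its log2 differences were -0.04 in cngc1-3 and -0.25 in cngc19 against Col-0. Centring the arrays on their medians turned both to 0.47 and 0.19, and against Col-0 replicate 1 alone they were 0.07 and -0.14.

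**Figure D2:**
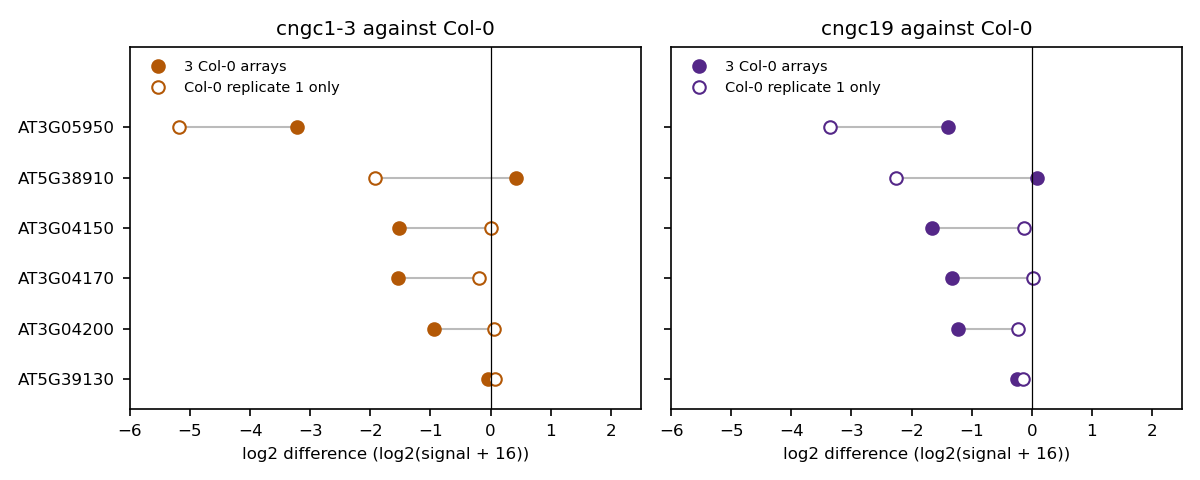
Log2 differences (log2(signal + 16)) of the 6 germin-like loci with their own probe sets, for each mutant against Col-0; filled points use all 3 Col-0 arrays and open points Col-0 replicate 1 alone. For AT3G05950 in cngc1-3 the values are -3.22 and -5.19, and for AT3G04150 they are -1.52 and 0.01.

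Counted together in cngc1-3 against Col-0, 1 of the 6 members was higher and 5 were lower, and their median log2 difference was -1.24. Over all 22746 probe sets the median was -0.42 and 32.4% were higher, while over the 13648 that passed the filter the median was -0.03. In cngc19 against Col-0 the members again counted 1 higher and 5 lower, with a median of -1.28, beside -0.38 and 34.4% higher over all probe sets and 0.05 over those that passed. In cngc1-3 against cngc19, 4 were higher and 2 lower, with a median of 0.17 beside -0.01 and 48.2% over all probe sets. When Col-0 replicate 1 stood alone for the wild type, the members counted 3 higher and 3 lower in cngc1-3, with a median of -0.09, and 1 higher and 5 lower in cngc19, with -0.18. The median over all probe sets was then -0.04 in both comparisons, with 46.3% higher in cngc1-3 and 45.7% in cngc19.

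The filter on low signal, at a mean log2 value of 5.52, kept AT3G05950 at 7.11 and AT5G38910 at 5.93. Just outside it lay AT3G04150 at 5.34, AT3G04200 at 5.14 and AT3G04170 at 5.13, with AT5G39130 at 4.29. Since a member can pass through the arrays on which it is high, nothing is read from the passing. In the limma fit over all 13648 probe sets, 0% were called at an adjusted p under 0.05 in each of the 3 comparisons (Benjamini-Hochberg), so 0 members were called. At an unadjusted p under 0.05 there were 3301 probe sets in cngc1-3 against Col-0, 2464 in cngc19 against Col-0 and 13 in cngc1-3 against cngc19. The counts of calls rested on single arrays, since without Col-0 replicate 1 limma called 4938 in cngc1-3 and 4603 in cngc19 against Col-0, and without cngc19 replicate 3 it called 12 and 11. Centring each array on its median moved the median difference of the tested probe sets to 0.49 in both mutants against Col-0. Over all probe sets, tested or not, the medians were then 0.10 in cngc1-3 and 0.06 in cngc19, with 54.4% and 53.0% higher. Under that scaling the members' median was -0.72 in cngc1-3 and -0.84 in cngc19, with 2 of 6 higher in each.

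Further germin-like loci came from a list of 22, of which 6 had a named probe set of their own and 4 of those were tested. None was called in either mutant against Col-0, and in each mutant 2 were higher and 4 lower than in Col-0, with medians of -0.72 in cngc1-3 and -0.50 in cngc19. In cngc1-3, 1 of the 6 lay above Col-0 and 2 below it without overlap, beside 8.15% and 14.3% of all 22746 probe sets. In cngc19, 0 lay above and 1 below, beside 4.66% and 11.9%. The widest difference was that of AT1G18980, which had signals of 1134, 949 and 1517 in cngc1-3, 1397, 1288 and 304 in cngc19, and 378, 77.1 and 15.9 in Col-0. All cngc1-3 arrays lay above the Col-0 arrays, while cngc19 replicate 3 lay below Col-0 replicate 1, so that cngc19 and Col-0 overlapped. Its log2 difference was 3.50 ± 0.88 (SE) in cngc1-3 (limma adjusted p = 0.181) and 2.99 ± 0.88 in cngc19 (limma adjusted p = 0.273). Against Col-0 replicate 1 alone these were 1.60 and 1.09. AT1G18980 was thus low on cngc19 replicate 3 and Col-0 replicate 1, where AT3G05950 was high, relative to the other arrays of cngc19 and cngc1-3. Among the Col-0 arrays, however, both genes were highest on replicate 1 and lowest on replicate 3.

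AT5G38960, the last locus of the AT5G38910 row, had signals of 20.4, 15.2 and 16.5 in cngc1-3, 16.05, 18.1 and 35.3 in cngc19, and 24.0, 198 and 85.4 in Col-0. The cngc1-3 arrays lay below all Col-0 arrays and the cngc19 arrays overlapped them, with log2 differences of -1.52 and -1.32 (limma adjusted p = 0.181 and 0.273). Against Col-0 replicate 1 alone these were -0.26 and -0.06. Its highest arrays were Col-0 replicates 2 and 3, as in the chromosome 3 row, and not those of its neighbour AT5G38910. AT1G74820 was likewise highest on Col-0 replicate 2, at 413, with log2 differences of -1.54 in cngc1-3 and -1.52 in cngc19 (limma adjusted p = 0.220 and 0.283) that were -0.42 and -0.40 against Col-0 replicate 1 alone. The cngc19 arrays of AT1G74820 all lay below the Col-0 arrays, while its cngc1-3 arrays overlapped them. AT3G10080 varied least, between 140.1 and 277 over the 9 arrays, with differences of 0.33 in cngc1-3 and 0.38 in cngc19 that were 0.52 and 0.57 against Col-0 replicate 1 alone. The dim AT5G26700 and AT5G61750 had differences of -1.06 and -0.38 in cngc1-3 and -0.71 and -0.29 in cngc19, and those of AT5G61750 turned to 0.14 and 0.15 with the arrays centred on their medians. With Col-0 replicate 1 as the only wild-type array, AT5G26700 differed by -0.30 in cngc1-3 and 0.05 in cngc19, and AT5G61750 by 0.12 and 0.20. The cngc1-3 arrays of AT5G26700 all lay below the Col-0 arrays, while its cngc19 arrays overlapped them.

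**Figure D3:**
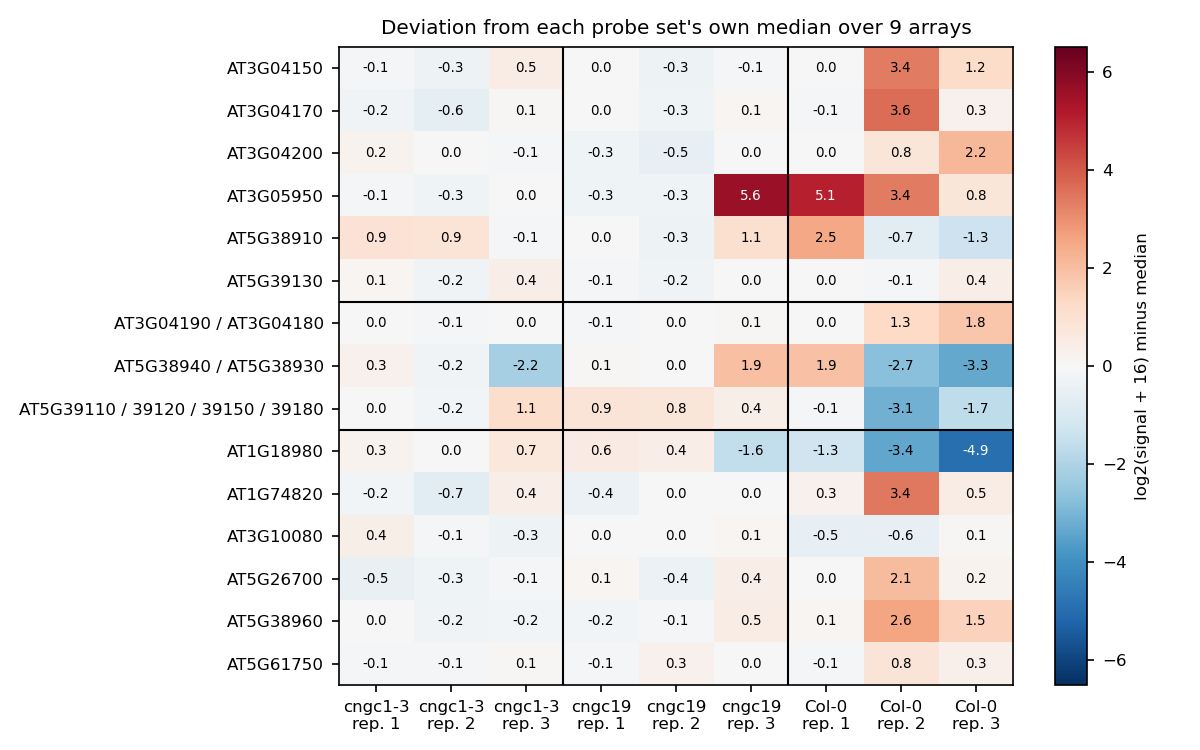
Each cell gives log2(signal + 16) on 1 array minus the median of that probe set over the 9 arrays, for the 6 germin-like members (top block), the 3 probe sets shared between loci (middle) and 6 further germin-like loci (bottom). AT3G05950 stands high on cngc19 replicate 3 and Col-0 replicates 1 and 2, while the chromosome 3 row reaches its highest values on Col-0 replicate 2 or 3.

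Other enzymes that make or remove reactive oxygen were set beside the members from lists of NADPH oxidases, which produce superoxide at the plasma membrane, superoxide dismutases, which turn it into hydrogen peroxide, and catalases, which break hydrogen peroxide down. Of 10 NADPH oxidase loci, 3 had a named probe set of their own, all tested and none called. The annotation named no gene for 8730 of the 22746 probe sets, so loci without a named probe set may still have been measured. AT4G11230 had signals of 21.9, 17.9 and 15.9 in cngc1-3, 16.4, 13.7 and 100.1 in cngc19, and 75.2, 156 and 7.85 in Col-0. Its high arrays were cngc19 replicate 3 and Col-0 replicates 1 and 2, the same 3 as for AT3G05950. The log2 difference was -1.06 in cngc1-3 and -0.58 in cngc19 (limma adjusted p = 0.361 and 0.638), and the lines overlapped. Both stayed negative against Col-0 replicate 1 alone, at -1.40 and -0.92, and without cngc19 replicate 3 the value for cngc19 was -1.22. AT4G25090 differed by 1.35 and 1.25 (limma adjusted p = 0.222 and 0.296), which turned to -0.29 and -0.39 against Col-0 replicate 1 alone, and AT1G19230 by 0.43 and 0.40, which were 0.06 and 0.03 against that array. Of 8 superoxide dismutases only the dim AT3G56350 had a named probe set of its own. Its differences were -0.43 and -0.38, which turned to 0.09 and 0.05 with the arrays centred on their medians. Against Col-0 replicate 1 alone they were -0.49 and -0.45. None of 3 catalases had a named probe set. The cngc1-3 arrays of AT3G56350 all lay below the Col-0 arrays, as did 14.3% of the 22746 probe sets, while its cngc19 arrays overlapped them.

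The profile of AT3G05950 was also set against 7417 tested probe sets with 1 gene each. Likeness was the root mean square difference of log2(signal + 16) over the 9 arrays, after centring each profile on its own mean, so a smaller value means a more similar profile. The 6 nearest were AT5G48430 at 0.42, AT3G03670 at 0.59, AT4G08380 at 0.60, AT4G22640 at 0.94, and AT1G49570 and AT3G29410 at 0.97 each, where the median over all candidates was 2.37. AT5G48430 had signals of 35.1, 55.7 and 34.8 in cngc1-3, 24.0, 16.3 and 2019.6 in cngc19, and 1904, 298 and 101 in Col-0. As for AT3G05950, a single cngc19 array and Col-0 replicate 1 were far above the rest. AT3G03670 had 17.4, 12.5 and 16.2 in cngc1-3, 1.38, 8.48 and 1459.9 in cngc19, and 1494, 147 and 4.72 in Col-0, and was likewise highest on cngc19 replicate 3 and Col-0 replicate 1.

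**Figure D4:**
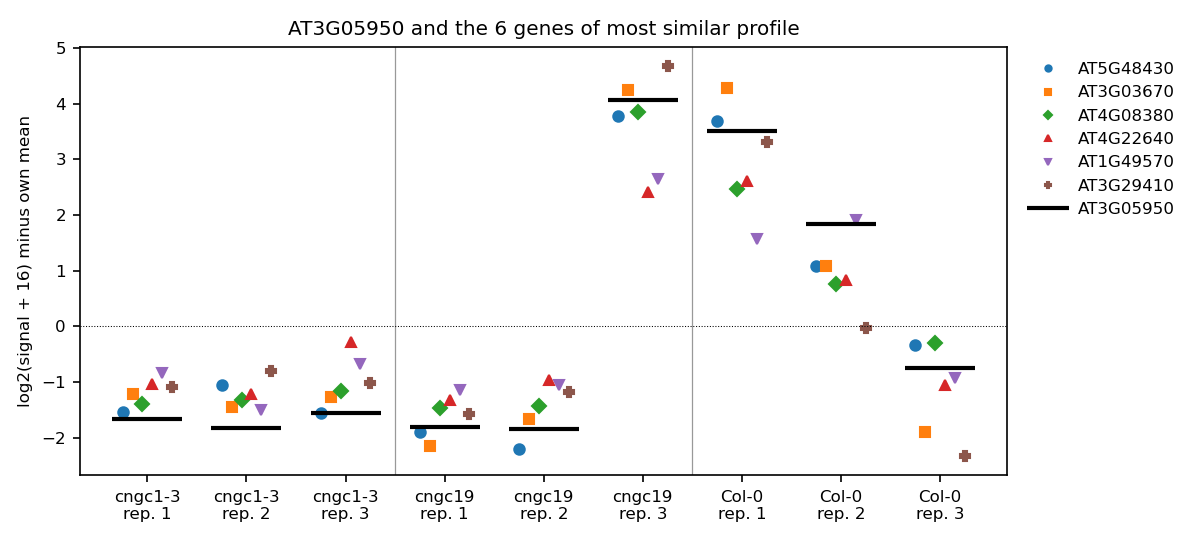
log2(signal + 16) minus each gene's own mean over the 9 arrays, for AT3G05950 (black bars) and the 6 genes nearest to it in profile (coloured points), by array. All 7 genes are highest on cngc19 replicate 3 or Col-0 replicate 1 and low on the 3 cngc1-3 arrays.

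By the same measure most germin-like loci lay about as far from AT3G05950 as the median over all candidates, 2.37. The nearest were AT5G26700 at 2.05, AT5G38910 also at 2.05 and AT5G38960 at 2.13, and the farthest was AT1G18980 at 3.54. The members AT3G04170, AT3G04150, AT5G39130 and AT3G04200 lay at 2.20, 2.31, 2.33 and 2.38. A flat profile would lie at 2.31, the root mean square of AT3G05950 about its own mean, so most of the family was about as far from it as a gene that did not vary. These distances are a description over 9 arrays that share their scaling and the arrays that stood apart.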

How the data were processed

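The authors deposited signal intensities of 9 ATH1 arrays, for which the submitters' processing notes name MAS5 and GCOS. The scaling was kept and no genome build is given in the sources used here. Of 22810 probe sets, 64 were controls. The platform annotation gave 1 gene for 13513 of the others, several for 503 and none for 8730, and all 10 listed loci matched the RefSeq table (TAIR10.1), which was used for names and neighbours. Signals were taken as log2(signal + 16). Probe sets at or above the 40th percentile of mean log2 value, 13648 in all, were fitted with limma 3.58.1 in R 4.3.3 (lmFit, eBayes with an intensity trend), two-sided, with all arrays in one model with 6 residual degrees of freedom, at a Benjamini-Hochberg adjusted p under 0.05. Plots were drawn with matplotlib 3.10.9 and tables made with pandas 2.3.3 and numpy 2.4.6 in Python 3.11.15. The fit was tested on simulated data.

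Groups and replicate numbers came from the titles. The members and all gene lists were chosen with earlier results of these data known. Named were every member and every further germin-like locus with its own probe set, up to 4 genes each of the NADPH oxidase, superoxide dismutase and catalase lists with the largest difference in cngc1-3 against Col-0, and the 6 genes nearest to AT3G05950. Alternatives were other pseudocounts, filters, scalings, spreads, thresholds, array weights, a replicate block and leaving out arrays.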

Additional observations from a re-analysis of the deposited data

How the results depend on the processing

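The number of probe sets called rested on which arrays were kept. With array weights, whose fitting stopped before it converged, 1228 were called in cngc1-3 against Col-0, 1047 in cngc19 against Col-0 and 9 in cngc1-3 against cngc19. Without Col-0 replicates 2 and 3 and replicate 3 of both mutants, 3507, 3312 and 107 were called. Leaving out 1 array at a time gave 0 to 4938, 0 to 4603 and 0 to 0 calls. The highest counts came without Col-0 replicate 1, and without cngc19 replicate 3 there were 12 and 11 calls in the mutants against Col-0. Under each other alternative run, including an adjusted p under 0.1, no filter and quantile normalization, 0 were called.

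The members' median in cngc1-3 against Col-0 was -1.76 with a pseudocount of 1, -0.71 with 64, -0.72 with median centring, -0.091 without Col-0 replicates 2 and 3, and -0.28 when replicate 3 of both mutants was also left out. In cngc19 against Col-0 it was -0.72 with a pseudocount of 64, and -0.18 and -0.28 under those 2 leave-outs. Leaving out 1 array gave -1.83 to -0.48 in cngc1-3 against Col-0, -1.39 to -0.54 in cngc19 against Col-0 and -0.02 to 0.24 in cngc1-3 against cngc19.

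For AT3G05950 the difference in cngc1-3 against Col-0 was -5.19 without Col-0 replicates 2 and 3 and -5.26 without replicate 3 of the mutants as well, where in cngc19 against Col-0 it was -5.33. Leaving out 1 array gave -4.35 to -2.23, -3.36 to -0.40 and, for cngc1-3 against cngc19, -2.81 to 0.14. Of 330 values of the 5 other members under alternatives, 24 moved by over 1 SD and 22 changed sign.

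With the replicate number as a replicate block, 0 probe sets were called in each comparison, with 3171, 2476 and 15 at an unadjusted p under 0.05 (limma). Deviations of same-numbered arrays correlated at -0.23 to 0.19 over 9 pairs, with 3 pairs above 0.1, so the numbers were not taken to pair the arrays.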
